A study of Mus musculus with 6 samples.

Results

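The genes described here supply antigen presentation by the major histocompatibility complex (MHC) class I in mouse bone marrow-derived macrophages: the heavy chains H2-K1 and H2-D1, the light chain B2m, the peptide transporter subunits Tap1 and Tap2, tapasin (Tapbp), the immunoproteasome subunits Psmb8, Psmb9 and Psmb10, and the transactivator Nlrc5. They were chosen by gene symbol, and all 10 were found among the 10551 genes of the deposited count table. Macrophages carrying the macrophage-specific Dhps knockout (Dhps_delta_Myel) were compared with control macrophages, with 3 RNA-sequencing libraries each, all on the C57BL/6J strain. Dhps encodes deoxyhypusine synthase, the enzyme that begins hypusination of eIF5A, a translation factor, and the series' title concerns its role in pro-inflammatory macrophages. The labels name no Cre driver, stimulus, age or growth factor, and do not say whether libraries came from separate animals, so p-values reflect no more than the scatter of the 6 libraries, possibly technical.

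Class I molecules display peptides from inside the cell to CD8 T cells. The proteasome cuts the peptides, and under interferon its catalytic subunits Psmb5, Psmb6 and Psmb7 are exchanged for Psmb8, Psmb9 and Psmb10. The Tap1-Tap2 transporter moves peptides into the endoplasmic reticulum, where tapasin holds an empty heavy chain bound to B2m next to it until a peptide fits. Nlrc5 has no DNA-binding domain of its own for this role: it acts on class I promoters through a complex of RFX, CREB/ATF and NF-Y proteins seated on neighbouring S, X and Y boxes.

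Promoter sequences are shown first, because H2-K1, H2-D1 and B2m hold several motifs in common. No S box or RFX binding site was searched for. RefSeq sequence upstream of the annotated start, 250 bases long, was matched by symbol for 8 of the 10 genes (GRCm38.p6), namely all except Tap2 and Nlrc5. In the sequences below, capitals mark the NF-kB consensus motif, the interferon regulatory factor (IRF) core AANNGAAA on either strand, and the pair made of TGACG, the CREB/ATF half-site, and ATTGG, the inverted CCAAT box of NF-Y, 20 bases further on. H2-K1 (chr17:34000348-34000597, minus strand, the more upstream of its annotated starts), H2-D1 (chr17:35262844-35263093, plus strand) and B2m (chr2:122147437-122147686, plus strand) are shown because all 3 hold each of these elements. The 225 bases between the first exons of Psmb9 and Tap1 (chr17:34187331-34187555, plus strand, which reads towards Tap1) are shown because these genes start back to back and share them.
H2-K1: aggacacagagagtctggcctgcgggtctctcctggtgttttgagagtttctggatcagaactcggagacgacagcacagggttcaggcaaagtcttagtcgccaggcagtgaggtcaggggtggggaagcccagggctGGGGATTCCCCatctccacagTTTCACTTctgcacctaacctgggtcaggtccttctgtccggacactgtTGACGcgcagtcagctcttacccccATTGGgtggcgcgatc
H2-D1: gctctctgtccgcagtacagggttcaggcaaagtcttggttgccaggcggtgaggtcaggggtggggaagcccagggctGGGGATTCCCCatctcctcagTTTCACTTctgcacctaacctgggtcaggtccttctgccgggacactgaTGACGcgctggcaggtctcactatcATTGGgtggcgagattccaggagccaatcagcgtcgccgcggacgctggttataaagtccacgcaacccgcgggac
B2m: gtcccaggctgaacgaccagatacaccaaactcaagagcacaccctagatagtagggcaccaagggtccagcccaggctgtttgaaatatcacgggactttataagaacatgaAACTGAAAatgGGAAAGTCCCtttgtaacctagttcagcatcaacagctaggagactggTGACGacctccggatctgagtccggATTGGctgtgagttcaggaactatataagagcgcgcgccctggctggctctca
Psmb9 to Tap1: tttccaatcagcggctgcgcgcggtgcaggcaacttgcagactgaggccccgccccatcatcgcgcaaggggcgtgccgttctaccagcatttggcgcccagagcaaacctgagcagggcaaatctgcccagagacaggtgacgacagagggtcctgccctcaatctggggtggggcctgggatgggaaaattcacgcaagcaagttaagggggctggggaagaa

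The H2-K1 and H2-D1 stretches were 87.4% identical over 190 aligned bases, and each carried the elements in the same order: the NF-kB motif, then the IRF core, then TGACG and last its partner ATTGG. In B2m the IRF core preceded the NF-kB motif. The pair of TGACG and ATTGG at this spacing occurred in 30 of 32851 RefSeq upstream stretches of the same length (0.0913%), counting both strands and every annotated start. The spacing was read from these 3 genes, so that share describes how rare the pair is and tests nothing. Taken singly the motifs were common: 17.8% of the stretches held TGACG, 33.8% held ATTGG, 21.3% held AANNGAAA and 3.90% held the NF-kB consensus. The overlapping stretches of Psmb9 and Tap1 held the same TGACG and the same ATTGG, on opposite strands and further apart (from -86 and -222 relative to the Tap1 start). Psmb8 held TTCNNNGAA, the palindrome of the interferon gamma-activated site (GAS; 7.02% of all stretches), Tapbp held ATTGG alone, and Psmb10 held none of these letters in this window.

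**Figure D1:**
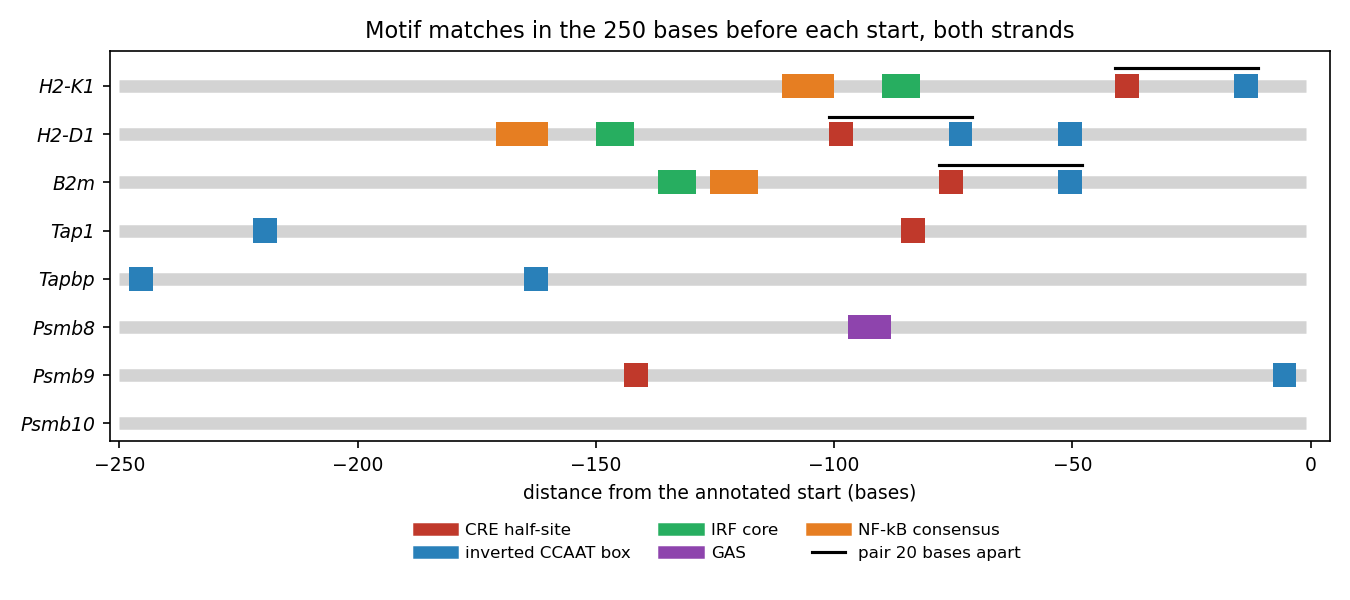
Motif matches in the 250 bases before the annotated start of 8 class I presentation genes; the x axis is the distance from the start in bases, coloured blocks are matches on either strand, and a black line joins TGACG and ATTGG where they lie 20 bases apart. Only H2-K1, H2-D1 and B2m of these 8 carry the joined pair.

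Tapbp, H2-K1, Psmb9, Tap1, Psmb8, Tap2 and H2-D1 lie in this order on chromosome 17, B2m on chromosome 2, and Nlrc5 and Psmb10 on chromosome 8 (mm10). Nlrc5 (chr8:94472763-94527272) and Psmb10 (chr8:105935728-105938392) lie 9.40 and 20.9 Mb from Dhps on that chromosome.

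Total counts were 12960793 to 16224818 in the knockout libraries and 11648710 to 15382816 in the control libraries, of which the 10 genes took 0.497% to 0.526% in knockout and 0.520% to 0.572% in control libraries. No member had fewer than 1044 reads in any library. Dhps itself had 13.2, 13.6 and 18.3 CPM (counts per 1000000, scaled for library composition) in the knockout libraries and 24.1, 20.9 and 23.4 CPM in the control libraries. The groups did not overlap, and the difference, knockout minus control, was -0.59 log2 units (SE 0.14), with an adjusted p = 0.214 by edgeR's quasi-likelihood test. All 9 listed macrophage markers were measured, and they summed to 12996 to 15227 CPM in knockout and 22014 to 24679 CPM in control libraries, with Lyz2, the lysozyme gene that makes up most of that sum, the 1 of them that fell. The neutrophil and precursor markers, of which 12 of 13 were measured and 5 rose, summed to 712 to 891 CPM in knockout and 408 to 513 CPM in control libraries. Of 8 stromal markers 4 were measured and 2 rose. The 4 measured summed to 8.05 to 12.02 CPM in knockout and 4.89 to 6.70 CPM in control libraries. The 2 that rose exceeded 1 CPM in the knockout libraries alone. Over all genes, 0.0948% were called higher. No other marker list held a called gene, but several sums did not overlap either. Monocyte markers, of which 7 of 8 were measured and 6 lay above 0, summed to 88.1 to 128 CPM in knockout and 78.7 to 86.0 CPM in control libraries. Dendritic cell markers, 4 of 9 measured, summed to 344 to 352 CPM in knockout and 243 to 342 CPM in control libraries. Itgax made up most of that sum, with means of 313 CPM in knockout and 255 CPM in control libraries. Of the 4, 3 lay above 0 and Batf3 below it (-0.28, SE 0.11). For mast cell and basophil markers, 4 of 7 measured, the sums were 5.36 to 7.79 CPM in knockout and 2.00 to 4.44 CPM in control libraries. Mcpt8 and Prss34 among them likewise exceeded 1 CPM in the knockout libraries alone. The sum of megakaryocyte and platelet markers, 6 of 7 measured, lay the other way, with 1269 to 1396 CPM in knockout and 1498 to 1797 CPM in control libraries. Pf4 made up most of that sum, with means of 1245 CPM in knockout and 1517 CPM in control libraries. By log2 fold change, 4 of the 6 lay above 0, with a median of 0.70. In those 4 every knockout library lay above every control library, against 5.73% of all genes, and none was called. Of the 4, Tubb1 and Gp9 exceeded 1 CPM in the knockout libraries alone. Of the T and NK cell markers 1 of 8 was measured, Ccl5. Class I genes are active in most nucleated cells, the part of these other cells in the values below was not tested, and in bulk RNA fewer cells of a type and less RNA per cell cannot be told apart.

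No class I presentation gene passed the test between knockout and control macrophages. Of all 10551 genes, 0.104% were called changed at an adjusted p under 0.05 (0.00948% were called lower), against 0 of the 10 members. DESeq2 called 22 genes in all and 0 of the 10. The log2 fold changes lay between -0.23 for Nlrc5 and 0.0052 for Tapbp, with a median of -0.12, beside -0.0044 over all genes. With 1 library left out that median ran from -0.17 (without knockout library 3) to -0.050 (without knockout library 1). 9 of the 10 lay below 0, against 51.3% of all genes, 1 had an unadjusted p under 0.05, and was lower, against 6.48% in either direction and 2.64% lower. In 2 every knockout library lay below every control library, against 5.45%, and in 0 every one lay above, against 5.73%. The 10 genes share their libraries and are not independent of each other.

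**Figure D2:**
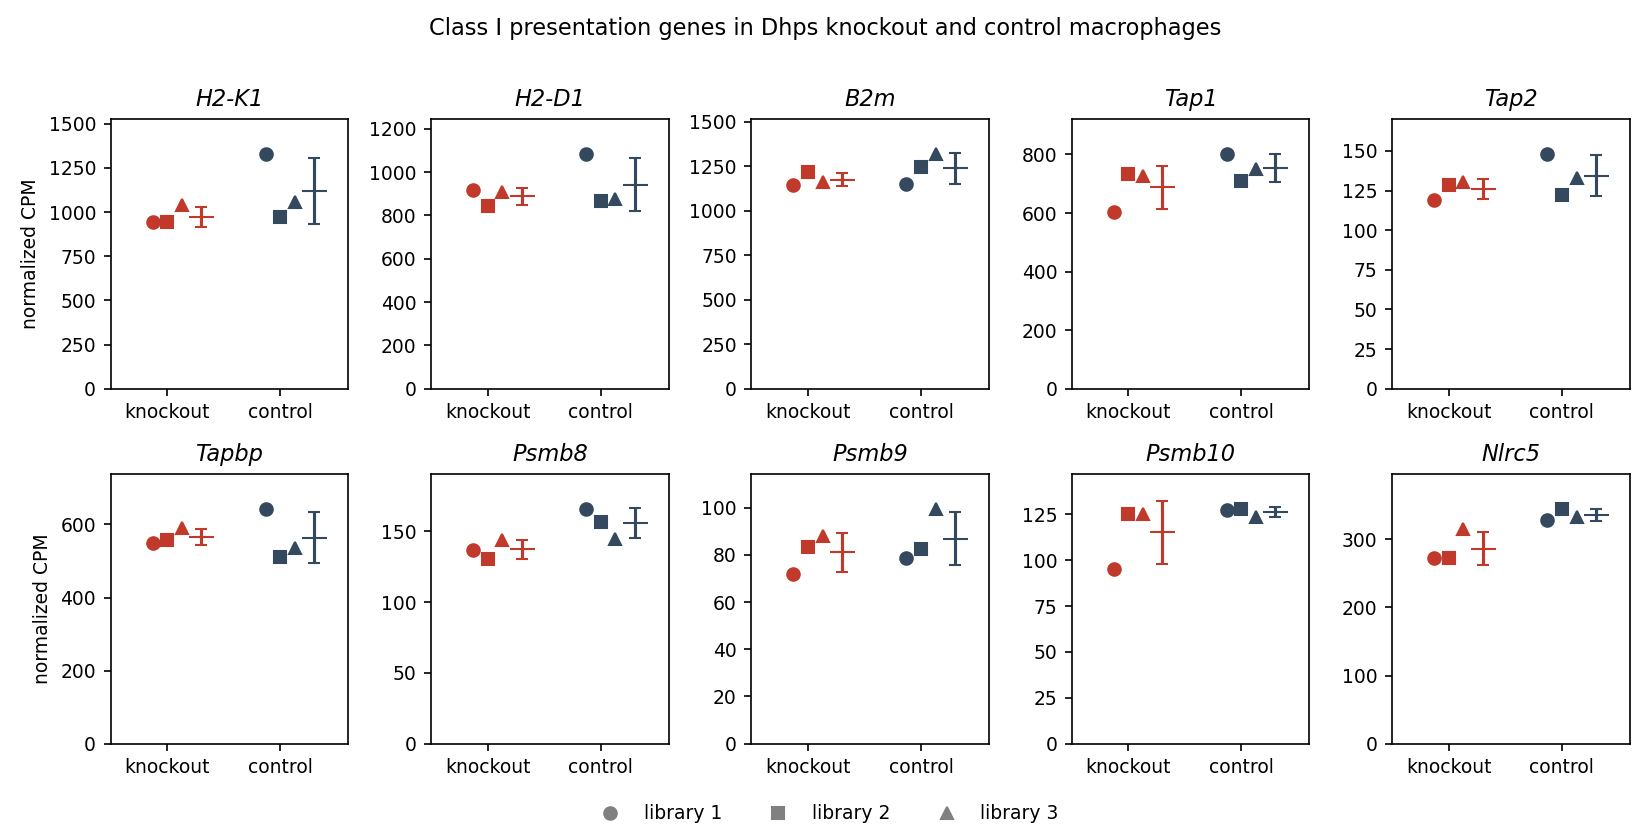
Normalized CPM of the 10 genes in each library, knockout to the left of control in every panel; symbols mark the library number, and the bar beside them is the mean with its SD (n = 3). The knockout libraries lie wholly below the control libraries for Psmb8 and Nlrc5, and overlap them for the other 8.

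Nlrc5, the transactivator, had the log2 fold change furthest from 0 and the smallest p of the 10 genes. It stood at 272, 273 and 315 CPM in the knockout libraries, against 328, 345 and 333 CPM in the control libraries. All 3 knockout libraries lay below all 3 control libraries, and knockout library 3 came nearest to them. The log2 fold change was -0.23 (SE 0.087, 95% interval -0.41 to -0.042, a fold of 0.854), with an unadjusted p = 0.019 and an adjusted p = 0.669 in edgeR's quasi-likelihood test. Its interval was the only one of the 10 that did not hold 0. With any single library left out the log2 fold change stayed between -0.30 and -0.19.

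Of the class I chains, H2-K1 had the largest difference and also the largest spread. H2-K1, one of the classical heavy chains, stood at 942, 941 and 1040 CPM in knockout libraries and at 1329, 974 and 1059 CPM in control libraries. The groups overlapped, since control library 2 lay below knockout library 3, and control library 1 lay far above the rest. Its log2 fold change of -0.20 (SE 0.11, 95% interval -0.43 to 0.023, adjusted p = 0.834 in edgeR's quasi-likelihood test) was -0.061 without control library 1. H2-D1, the other classical heavy chain, had 916, 844 and 907 CPM in knockout and 1083, 866 and 877 CPM in control libraries. Here too control library 1 was the highest, and the other 5 libraries intermixed. The log2 fold change was -0.084 (SE 0.097, 95% interval -0.29 to 0.12) and turned to 0.028 without control library 1. B2m, the light chain shared by all class I molecules, had 1146, 1215 and 1163 CPM in knockout and 1148, 1245 and 1318 CPM in control libraries. Its groups overlapped and control library 1 was the lowest of its group, unlike for the heavy chains. The B2m log2 fold change was -0.075 (SE 0.086, 95% interval -0.26 to 0.11), with -0.13 without control library 1 and -0.027 without control library 3.

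Heavy chain genes belong to a family of close relatives, and reads could be assigned to the wrong copy. Of all 100-base windows of the longest annotated coding transcript, none of H2-K1, B2m, Psmb10 or Nlrc5 recurred exactly in a transcript of another gene, while 4.64% of those of H2-D1 did, mostly in H2-Q1. The H2-D1 value is uncertain to that extent, and variation short of identity was not counted. Tap2 and Tapbp share 518 and 536 exonic bases with the antisense genes Gm15821 and Gm19412. Gm20496, also antisense, shares 186 exonic bases with Psmb8 and 140 with Tap2. The counted exons of Tap1 share 209 bases with longer GENCODE transcripts of Psmb9, on the other strand. The counted exons of Psmb9 do not reach those of Tap1. The use of strand in counting is not given in the sources used here, so reads from those stretches cannot be told apart.

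The peptide transporter subunits overlapped between groups. Tap1 had 604, 734 and 727 CPM in knockout and 802, 709 and 752 CPM in control libraries, with knockout library 1 well below the other 5. The log2 fold change of Tap1 was -0.13 (SE 0.095, 95% interval -0.33 to 0.068), and -0.042 without that library. Tap2 had 119, 129 and 131 CPM in knockout and 148, 122 and 133 CPM in control libraries, a difference of -0.092 log2 units (SE 0.095, 95% interval -0.29 to 0.11). Control library 1 held its highest value and knockout library 1 its lowest. Tapbp, the chaperone that tethers class I to the transporter, had 549, 556 and 591 CPM in knockout and 643, 511 and 537 CPM in control libraries. All 3 knockout libraries lay between control library 1 above and the other control libraries below. It was the 1 member without a negative log2 fold change, at 0.0052 (SE 0.095, 95% interval -0.20 to 0.21), and its sign changed with the library left out.

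Among the immunoproteasome subunits Psmb8, the chymotrypsin-like subunit that replaces Psmb5, had 137, 131 and 144 CPM in knockout libraries against 166, 157 and 144 CPM in control libraries. The groups did not overlap, though knockout library 3 (144.1 CPM) and control library 3 (144.4 CPM) nearly met. The Psmb8 log2 fold change was -0.18 (SE 0.090, 95% interval -0.37 to 0.0074, adjusted p = 0.802 in edgeR's quasi-likelihood test). Psmb9, which replaces Psmb6, had 71.8, 83.1 and 88.0 CPM in knockout and 78.7, 82.4 and 99.5 CPM in control libraries, a difference of -0.099 log2 units (SE 0.11, 95% interval -0.33 to 0.13) with overlap. Psmb10, which replaces Psmb7, had 95.3, 125 and 125 CPM in knockout and 127, 128 and 123 CPM in control libraries. Knockout library 1 stood apart below the other 5, which lay close together. The log2 fold change of Psmb10 was -0.13 (SE 0.11, 95% interval -0.35 to 0.091), and -0.0074 without that library.

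As sums of the 3 immunoproteasome subunits, knockout libraries held 304 to 357 CPM and control libraries 367 to 372 CPM, with no overlap and no test made. Sums of their constitutive counterparts Psmb5, Psmb6 and Psmb7 did not overlap either. Those were 338 to 356 CPM in knockout and 374 to 397 CPM in control libraries, also untested. The constitutive subunits did not pass the test either. Psmb6 had 256, 255 and 271 CPM in knockout and 291, 302 and 286 CPM in control libraries, with no overlap and a difference of -0.17 log2 units (SE 0.082, adjusted p = 0.793 by edgeR's quasi-likelihood test). Psmb7 differed by -0.16 log2 units (SE 0.094) and Psmb5 by -0.10 log2 units (SE 0.15), both with overlap. Psmb7 shares 395 exonic bases with Nek6 on the other strand, and 24.9% of the 100-base windows of Psmb5 recur in other annotated transcripts. The ratio of each replacement to its counterpart within a library does not depend on library scaling. The log2 ratio of Psmb8 to Psmb5 counts was 2.83, 2.92 and 2.96 in knockout and 2.74, 3.17 and 3.10 in control libraries, with an exact permutation p = 0.50. For Psmb9 to Psmb6 it averaged -1.69 ± 0.12 in knockout and -1.76 ± 0.21 in control libraries (SD, n = 3 each), with an exact permutation p = 0.80. For Psmb10 to Psmb7 it averaged 0.75 ± 0.30 in knockout and 0.73 ± 0.068 in control libraries, with an exact permutation p = 1.0. All 3 ratios overlapped between the groups. Together with the 3 ratios given further on, 6 were compared, each adjusted p was 1.0, the tests were two-sided, and 3 libraries against 3 cannot give a p below 0.10.

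**Figure D3:**
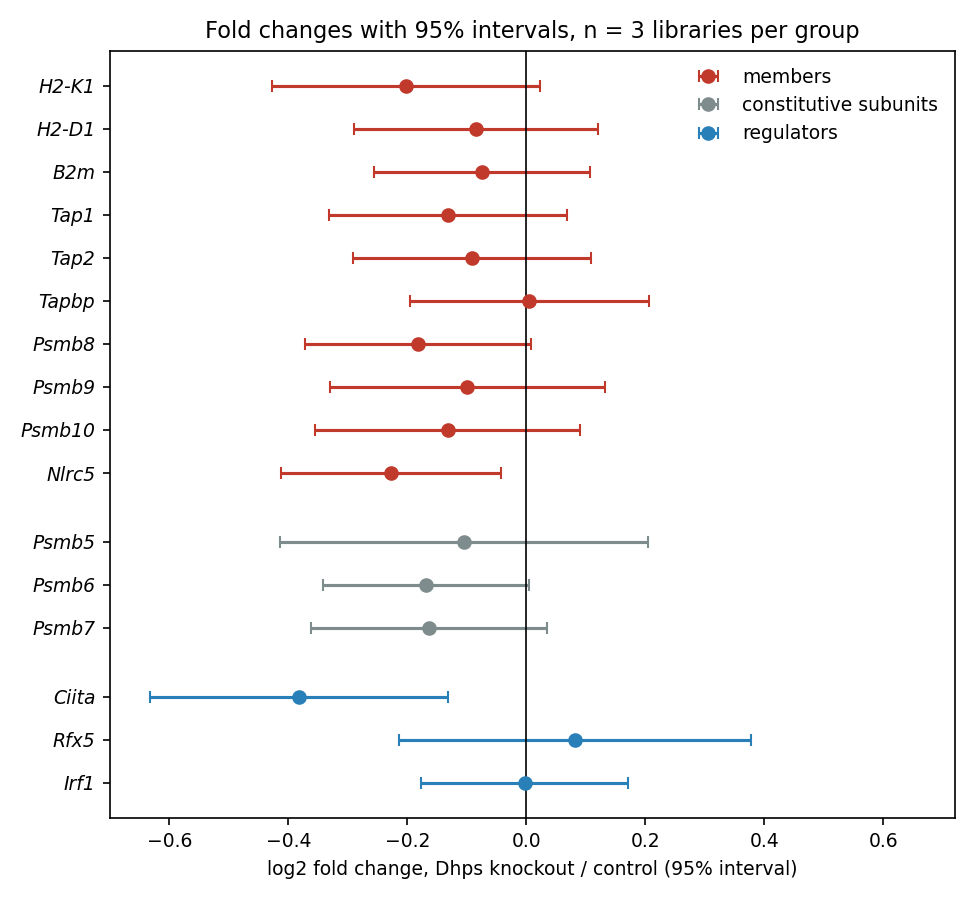
Log2 fold change of knockout over control on the x axis, with its 95% interval from the edgeR fit (3 libraries per group), for the 10 class I presentation genes, the constitutive proteasome subunits and 3 regulators. Among the class I presentation genes the interval of Nlrc5 alone lies wholly below 0, and none passes after adjustment over all genes.

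Levels of different genes were compared as normalized CPM per kb of exonic length. B2m was the most abundant member, at 1369 ± 41.9 in knockout and 1442 ± 99.5 in control libraries (SD, n = 3 each), above 99.7% of all genes in the table. H2-K1 followed at 592 ± 34.5 in knockout and 681 ± 113 in control libraries, and H2-D1 at 512 ± 22.5 in knockout and 543 ± 70.5 in control libraries. Their ranges overlapped in the control libraries and not in the knockout libraries. Next came Tap1 (233 ± 24.9 in knockout, 256 ± 15.8 in control) and Tapbp (206 ± 8.26 in knockout, 205 ± 25.4 in control), whose ranges overlapped in the knockout libraries. Psmb8 (112 in knockout, 127 in control), Psmb9 (100.5 in knockout, 108 in control) and Psmb10 (90.7 in knockout, 99.4 in control) formed a group in which each overlapped its neighbour in both genotypes. Tap2 (50.6 in knockout, 54.0 in control) and Nlrc5 (41.3 in knockout, 48.3 in control) were the lowest, with overlap between them in control libraries, and Nlrc5 still lay above 86.8% of all genes.

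Tap1 and Tap2, which act together, stood at unequal transcript levels in both genotypes. Per length, the Tap1 level over that of its partner Tap2 was 4.29, 4.81 and 4.70 in knockout libraries and 4.57, 4.90 and 4.78 in control libraries. H2-K1 and H2-D1 together reached 0.807 ± 0.054 of the B2m level in knockout and 0.856 ± 0.19 in control libraries. In control library 1 they exceeded the B2m level (1.07). Other class I chains, such as H2-T23, were not in that sum. The log2 ratio of H2-K1 to B2m counts averaged -0.27 ± 0.10 in knockout and -0.15 ± 0.32 in control libraries (exact permutation p = 0.80), and that of H2-D1 to B2m -0.40 ± 0.11 in knockout and -0.40 ± 0.27 in control libraries (exact permutation p = 0.90). In control library 1 both ratios were the highest of the 6, at 0.21 for H2-K1 and -0.083 for H2-D1. Per length, Psmb8 stood at 5.33 times the level of Psmb5 in knockout and 5.71 times in control libraries. For Psmb10 over Psmb7 the factor was 1.29 in knockout and 1.27 in control libraries. Psmb9 reached 0.398 of Psmb6 in knockout and 0.379 in control libraries. The Psmb5 level is uncertain because 24.9% of its 100-base windows recur elsewhere, and that of Psmb7 because it shares exonic bases with Nek6. The effect on these factors was not tested.

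**Figure D4:**
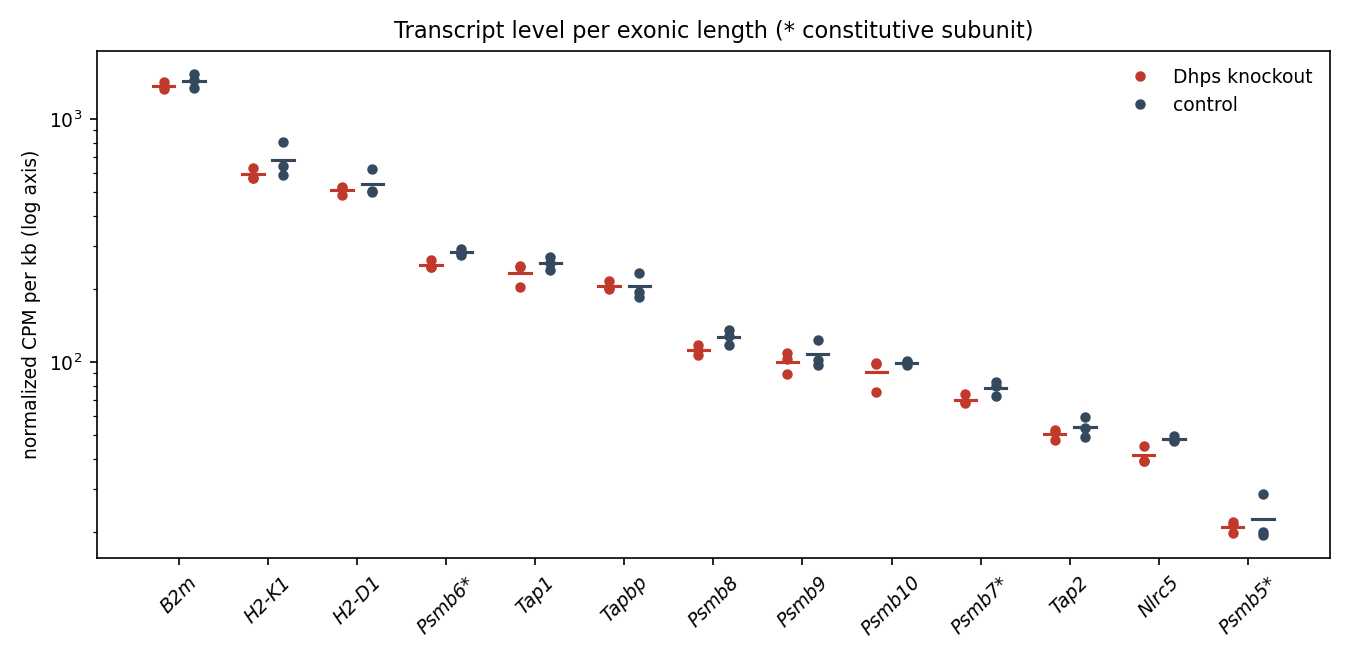
Normalized CPM per kb of exonic length on a log axis for the 10 genes and, starred, the 3 constitutive proteasome subunits, ordered by mean level; points are libraries, lines are means, and knockout is left of control. B2m leads, and Psmb5 lies below every class I presentation gene.

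Averaged over the 10 genes, log2 CPM deviated from the mean of the 6 libraries by -0.15, -0.053 and 0.018 in knockout libraries 1 to 3 and by 0.13, -0.0039 and 0.051 in control libraries 1 to 3. The groups overlapped on this average, since knockout library 3 lay above control library 2. Knockout library 1 held the lowest of the 6 values for 6 of the 10 genes, against 19.4% of all genes, and control library 1 held the highest for 6, against 20.7% of all genes. B2m (-0.069) and Psmb9 (-0.086) went the other way in control library 1, where they lay below their own means. The median over all genes deviated by at most 0.0071 in any library. Knockout library 1 held the lowest average of the 10 genes and control library 1 the highest. Leaving both out was therefore bound to raise the knockout average relative to control. With these 2 libraries left out, an alternative added after the values were seen, 6 of the 10 log2 fold changes lay below 0 and their median was -0.021. Nlrc5 stayed at -0.21 and Psmb8 at -0.13, whereas H2-K1 came to -0.037, Tap1 to 0.00024, Tap2 to 0.026 and H2-D1 to 0.0062. Knockout library 1 was also the lowest for Hspa5, a chaperone of the endoplasmic reticulum, with 610 CPM against 798 and 824 CPM in the other knockout libraries and 827, 724 and 802 CPM in control libraries. The part of these differences between libraries in the class I values was not tested.

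**Figure D5:**
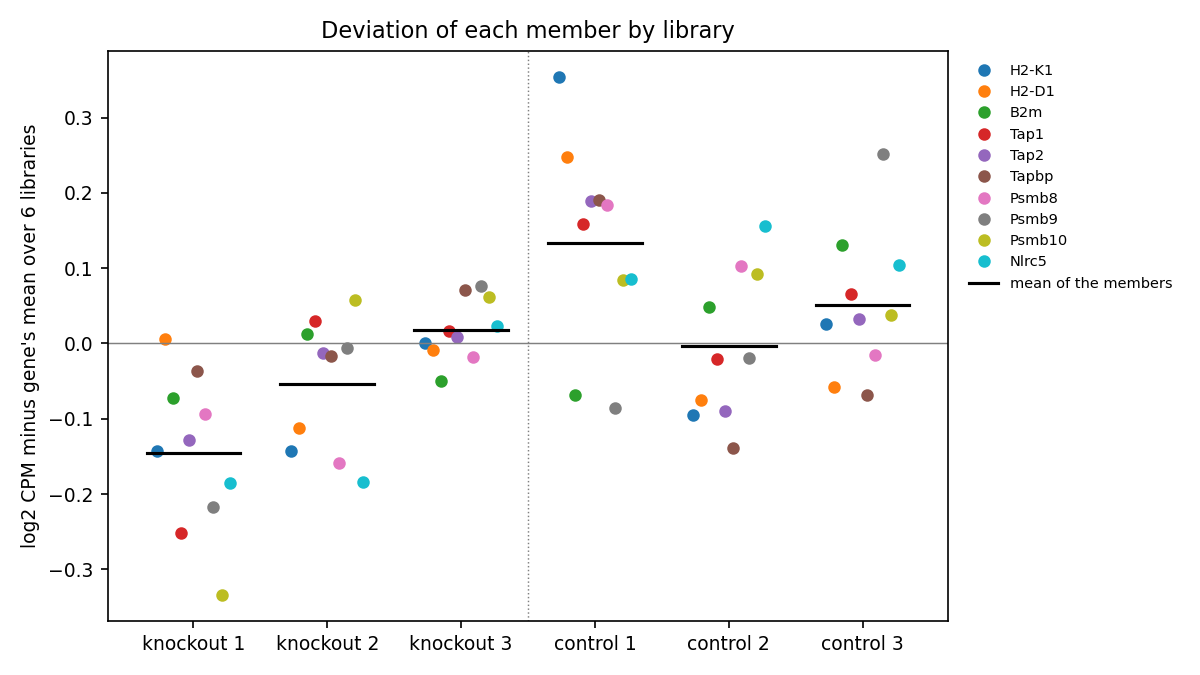
Deviation of log2 CPM from each gene's mean over the 6 libraries (y axis) by library, knockout left of control; each colour is 1 of the 10 genes and the black line is their mean. Knockout library 1 has the lowest mean (-0.15) and control library 1 the highest (0.13).

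By the root mean square difference of centred log2 CPM over the 6 libraries, the genes whose profile lay nearest to the average of the members were Atp5b (0.033), Srprb (0.034), Exoc1 (0.035) and Bms1 (0.035). Those 4 came from 7982 genes with a range at least as wide as that of the average (0.28 on the log2 scale). Atp5b, a subunit of ATP synthase, had 435, 476 and 479 CPM in knockout and 541, 461 and 501 CPM in control libraries. Its lowest value in knockout library 1 and its highest in control library 1 follow from how this gene was picked. The interval of its log2 fold change, -0.30 to 0.073, held 0.

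The factors through which Nlrc5 and interferon act on class I promoters showed no called difference. Of 17 listed, 9 had a log2 fold change below 0 and none passed. Rfx5, the DNA-binding subunit of the RFX complex, had 16.4, 14.3 and 15.4 CPM in knockout and 14.4, 12.5 and 16.8 CPM in control libraries (difference 0.082 log2 units, SE 0.14), with overlap. Rfxank, another RFX subunit, had 2.34, 2.56 and 2.33 CPM in knockout and 3.43, 4.05 and 3.13 CPM in control libraries (difference -0.56 log2 units, SE 0.25, adjusted p = 0.749 by edgeR's quasi-likelihood test), without overlap at a very low level. Rfxap (0.29, SE 0.21) and the CREB relative Atf1 (0.21, SE 0.13) lay on the other side. The log2 ratio of Nlrc5 to Rfx5 counts averaged 4.22 ± 0.16 in knockout and 4.53 ± 0.24 in control libraries (exact permutation p = 0.20).

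Irf1, an interferon-induced activator of Nlrc5 and class I genes, was abundant and close between the groups, with 2124, 2109 and 2191 CPM in knockout and 2134, 2074 and 2227 CPM in control libraries. Its log2 fold change was -0.0026 (SE 0.082, 95% interval -0.18 to 0.17). Ciita, the relative of Nlrc5 that drives MHC class II genes through the same RFX complex, had 48.6, 50.8 and 54.1 CPM in knockout and 53.4, 71.9 and 74.8 CPM in control libraries. Control library 1 overlapped with the knockout libraries. The log2 fold change of Ciita was -0.38 (SE 0.12, unadjusted p = 0.0050, adjusted p = 0.462 by edgeR's quasi-likelihood test), and it was called without control library 1 (-0.52, adjusted p = 0.043). Of 9 interferon receptor, JAK kinase and SOCS genes none passed. Socs3, a feedback inhibitor of cytokine signalling, had the smallest p among them (-0.12, SE 0.083), followed by Socs1 (-0.12, SE 0.094), the receptor chain Ifnar2 (0.096, SE 0.083) and Jak1 (0.065, SE 0.081), all in log2 units.

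Non-classical and class I-like genes, of which 11 of 22 were measured, had 8 log2 fold changes below 0, a median of -0.10 and no called member. H2-M3, which presents formylated peptides and carries the same promoter pair, had 30.8, 35.3 and 38.4 CPM in knockout and 39.9, 36.5 and 43.4 CPM in control libraries (-0.19, SE 0.11). The others with the smallest p were the neonatal Fc receptor Fcgrt (-0.14, SE 0.11), H2-T23 (-0.10, SE 0.10), which encodes Qa-1, and H2-K2 (-0.26, SE 0.26). Without control library 1 and knockout library 1 the median of these genes was 0.028.

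Of 11 peptide loading and trimming genes 10 were measured, with 5 on each side of 0, a median of 0.0023 and none called. Pdia3 (0.10, SE 0.10), the thiol oxidoreductase of the loading complex, Sec61a1 (-0.073, SE 0.089), Lnpep (0.072, SE 0.10) and Hspa5 (-0.076, SE 0.11) had the smallest p. The proteasome activator and assembly list was measured in full, with 10 genes, 5 on each side of 0 and none called. Psme1, a subunit of the interferon-inducible activator PA28, had 108, 121 and 145 CPM in knockout and 135, 138 and 143 CPM in control libraries (-0.15, SE 0.10). The assembly factor Psmg2 (-0.48, SE 0.31) had the smallest p, and the activators Psme3 (0.13, SE 0.11) and Psme4 (0.095, SE 0.087) followed.

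Relatives of Nlrc5 in the NLR family, sensors of bacterial and other danger signals, had a median of -0.010 log2 units over 11 measured genes, with none called. Those with the smallest p were Naip6 (-0.52, SE 0.38), Nlrc3 (0.42, SE 0.37), Nlrc4 (0.18, SE 0.18) and Nlrp1b (-0.18, SE 0.22). Of the receptors for class I and immune ligands 7 of 11 were measured and none was called. Cd274, which encodes the checkpoint ligand PD-L1, had 2252, 2323 and 2262 CPM in knockout and 2210, 2315 and 2250 CPM in control libraries (0.013, SE 0.081). H60b (0.63, SE 0.43) and Ulbp1 (0.11, SE 0.12), ligands of the activating receptor NKG2D, and the inhibitory receptor Lilrb4a (0.019, SE 0.080) were the other genes named of that list. In the class II list, 8 of 9 genes were measured, the unadjusted p was under 0.05 in 6, a share to set beside 6.48% over all genes, and none was called. These 6 were split, with Ciita, H2-DMa (-0.35, SE 0.13) and H2-DMb1 (-0.24, SE 0.10), the peptide exchange factor, below 0 and the class II chains H2-Eb1 (0.44, SE 0.18) and H2-Aa (0.36, SE 0.16) and the invariant chain Cd74 (0.29, SE 0.14) above it.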

How the data were processed

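Per the labels' protocols, total RNA of 6 libraries was sequenced on the Ion Proton. The deposited table gives whole-number read counts per gene, not normalized by the authors, beside each gene's exons and exonic length. Tools named in the submitters' processing notes, with no role or order, are edgeR, featureCounts, STAR (2.4.2a) and Subread (1.5.0), with the build mm10. The annotation and the use of strand are not given in the sources used here. In all 10551 genes the third highest library exceeded 1 CPM. Per-sample columns not used numbered 0.

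Counts were scaled by the trimmed mean of M values. Knockout was compared with control by edgeR 4.0.16 (R 4.3.3), quasi-likelihood test, two-sided, genotype as the only term, filterByExpr with a minimum count of 10 (0 genes removed), and Benjamini-Hochberg adjustment over all genes at 0.05. The biological coefficient of variation was 10.7%. SE is the log2 fold change divided by the square root of F. Centred log2 CPM used a prior count of 2, and ratios used raw counts. Overlapping exons and recurring transcript windows come from GENCODE M21, upstream sequences from RefSeq. DESeq2 1.42.0, limma 3.58.1 (voom), other size factors and filters, left-out libraries and a replicate block were alternatives.

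The members and lists were chosen with earlier results of these data known. Named are all members, Dhps, Psmb5, Psmb6, Psmb7, Irf1, Rfx5, Ciita, of each pathway list the called genes and up to 4 with the smallest p, and the genes most like the members, up to 5. H2-Aa and Cd74 were added after their values were seen. Of the genes this rule names, 2 are not reported here.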

Additional observations from a re-analysis of the deposited data

How the results depend on the processing

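None of the 10 members was called under any alternative run. The number below 0 was 9 with other size factors, filters and tools and with the replicate block, 8 to 10 with 1 library left out, and 6 without both libraries numbered 1, which was added after the data were seen. The number of all genes called, 11, was 7 with Lyz2 left out of the counts, 35 with the replicate block, 22 with DESeq2, 4 to 19 with 1 library left out (lowest with control library 2 omitted, highest with control library 1 omitted) and 51 with both libraries numbered 1 omitted; the cause was not tested. With 1 library left out, the log2 fold change ranged from -0.13 to -0.027 for B2m, from -0.14 to 0.028 for H2-D1, from -0.18 to -0.042 for Tap1, from -0.15 to -0.015 for Tap2, from -0.056 to 0.11 for Tapbp, from -0.17 to 0.0080 for Psmb9, from -0.20 to 0.099 for Psmb5, from -0.022 to 0.025 for Irf1 and from -0.015 to 0.19 for Rfx5. Without both libraries numbered 1 it was 0.0062 for H2-D1, 0.00024 for Tap1, 0.026 for Tap2, 0.13 for Tapbp and 0.065 for Psmb5. Irf1 was at 0.0049 with upper quartile and 0.022 with no size factors. The differences in log2 ratio ranged from -0.069 to 0.19 for Psmb10 to Psmb7, from -0.22 to 0.065 for H2-K1 to B2m, from -0.099 to 0.15 for H2-D1 to B2m, from -0.23 to -0.014 for Psmb8 to Psmb5, from 0.0079 to 0.19 for Psmb9 to Psmb6 and from -0.43 to -0.19 for Nlrc5 to Rfx5 with 1 library left out. In the lists of regulators and of class II genes, 0 to 1 gene was called with 1 library left out and 1 without both libraries numbered 1, in each case Ciita. With the replicate number as a block Dhps was called (-0.61, adjusted p = 0.033). Same-numbered libraries deviated together with correlations across genes of 0.14, 0.019 and 0.15, against -0.18 to 0.055 for differently numbered libraries. The value of 0.019 lies within that range, and the numbers were not taken as pairs. Whether they mark pairs was not tested. With 3 libraries a group, the members' intervals reached down to -0.43 and up to 0.21.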

Other observations

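The pair of TGACG and ATTGG 20 bases apart was found upstream of 26 genes, of which 18 were in the count table and 3 of these were class I members. Of the 18, 9 had a log2 fold change below 0, none was called and the median was -0.0055. Nfe2l1, a transcription factor of proteasome genes, carried the pair and had 167 ± 9.06 CPM in knockout and 178 ± 8.92 CPM in control libraries (SD, n = 3 each). Per1, a clock gene, had 10.8 ± 0.27 CPM in knockout and 8.20 ± 1.05 CPM in control libraries, with every knockout library above every control library (0.40 log2 units, adjusted p = 0.672 by edgeR's quasi-likelihood test). Znrd1, a subunit of RNA polymerase I, had 5.73 ± 0.47 CPM in knockout and 3.88 ± 1.09 CPM in control libraries, again without overlap (0.57 log2 units, adjusted p = 0.673 by the same edgeR test). Kcnq1ot1, a noncoding RNA, had 3.96 ± 0.78 CPM in knockout and 2.76 ± 0.14 CPM in control libraries, also without overlap (0.51 log2 units, adjusted p = 0.802 by the same edgeR test). Over all genes, every knockout library lay above every control library in 5.73%. Tecpr1, an autophagy gene, lay the other way, with 42.1 ± 1.68 CPM in knockout and 51.2 ± 9.86 CPM in control libraries, with overlap (-0.29 log2 units, adjusted p = 0.723 by the same edgeR test). These 5 were picked after their values were seen.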
